A study of Homo sapiens with 16 samples.

Results

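The integrin and laminin genes were taken as the protein-coding genes whose symbol is ITGA or ITGB followed by 1 to 2 characters, or LAMA, LAMB or LAMC followed by a digit. ITGBL1 was left out by name. The rule found 38 genes, 26 integrin and 12 laminin genes, of 19974 protein-coding genes on chromosomes 1 to 22 and X, and used no measured value. Open chromatin was described through peaks within 10 kb of each gene's span on the hg38 build. Peaks of all lists that overlapped by at least 1 bp were merged into regions, and 510 of 183659 merged regions lay within these extended spans. Of the 510, 305 belonged to integrin genes and 205 to laminin genes, and 8 lay within the extended spans of a pair of neighbouring members (4 for LAMB1 and LAMB4, 4 for ITGAD and ITGAX). A further overlap was that 43 of the 510 regions (8.43%) also lay in the span of another protein-coding gene.

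Open chromatin was mapped by NicE-seq in U87, an established human glioblastoma cell line. In this assay a nicking enzyme cuts accessible DNA in fixed nuclei, a polymerase builds biotinylated nucleotides in at the nicks, and the labelled DNA is captured and sequenced. There were 16 libraries in 4 groups of 4. The combination group received AsiDNA and belinostat, the belinostat group received belinostat, the AsiDNA group received AsiDNA with DMSO, and the vehicle group received DMSO as the control. Belinostat, a broad histone deacetylase inhibitor, was given at 1 µM for 24 h. AsiDNA is a short double-stranded DNA that mimics a double-strand break and draws repair proteins away from the chromosomes. No source used here gives its dose or exposure time. The protocols speak of MTU87 and LTAU87 cells where the sample fields say U87, so how the AsiDNA groups were exposed, and whether they share 1 parent culture with the others, could not be settled from them. A group's 4 libraries all name the same peak list, so that no spread between replicates could be measured and no test was made. Intervals below are Wilson 95% intervals, which cover counting error only, and neighbouring regions of a gene are not independent.

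Integrins are adhesion receptors that pair an alpha with a beta chain, bind matrix or cell-surface ligands outside the cell and link them to the actin cytoskeleton inside it. Laminins are trimers of an alpha, a beta and a gamma chain that form the sheet of basement membranes and are themselves integrin ligands. Both families are known in glioma for their part in invasion, which often follows blood vessels. As a check of the cell type, a peak within 1000 bp of the gene start was in all 4 lists for 8 of 10 glioblastoma, glial or mesenchymal markers, among them SOX2, NES, VIM, CD44 and OLIG2. This was 80% (49.0% to 94.3%), an interval that takes in the 61.6% of all protein-coding genes, so the count alone says little. For the markers of other cell types below it was 20% (5.67% to 51.0%). GFAP, the astrocyte intermediate filament, had no peak within 1000 bp of either end in any list, and CHI3L1, a mesenchymal glioma marker, had one in the vehicle list alone. Of 10 markers of other cell types, 2 had a peak in all 4 lists (CD3E and SNAP25), 2 had one in some lists (CDH5 with the combination and belinostat, RBFOX3 in all but the combination list), and 6 had none, among them PTPRC, PECAM1, EPCAM, CDH1 and ALB. Either end of the gene was allowed where the strand was not in the tables used, which among the markers with a peak were OLIG2, S100B, CD3E, SNAP25 and CDH5. A peak at a gene start marks open chromatin and is not a measure of expression.

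RefSeq promoters (GRCh38.p14, 250 bases before to 50 bases after the start) were matched for 26 of the 38 genes. Some are printed below because they span the range of what was found at the starts. The first 3 had a peak within 1000 bp of the start in all 4 lists, and the last had no peak within 1000 bp in any list, nor did LAMA3 before it. ITGB1 lies on the minus strand at chr10:32958181-32958480, LAMC1 on the plus strand at chr1:183023170-183023469 and ITGA2 on the plus strand at chr5:52989102-52989401. LAMA3 lies on the plus strand at chr18:23872770-23873069 and ITGB6 on the minus strand at chr2:160200223-160200522. Capitals mark the motifs searched: the GC box (GGGCGG, or CCGCCC on the other strand), the AP-1 motif (TGANTCA, which is its own reverse complement) and the TATA box (TATAAA, either strand).
ITGB1: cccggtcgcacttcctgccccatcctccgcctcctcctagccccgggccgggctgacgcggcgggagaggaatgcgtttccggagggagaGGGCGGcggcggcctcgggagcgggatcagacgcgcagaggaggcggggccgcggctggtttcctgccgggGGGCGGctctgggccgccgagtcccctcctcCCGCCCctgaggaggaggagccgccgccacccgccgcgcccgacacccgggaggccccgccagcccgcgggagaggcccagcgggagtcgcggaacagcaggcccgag
LAMC1: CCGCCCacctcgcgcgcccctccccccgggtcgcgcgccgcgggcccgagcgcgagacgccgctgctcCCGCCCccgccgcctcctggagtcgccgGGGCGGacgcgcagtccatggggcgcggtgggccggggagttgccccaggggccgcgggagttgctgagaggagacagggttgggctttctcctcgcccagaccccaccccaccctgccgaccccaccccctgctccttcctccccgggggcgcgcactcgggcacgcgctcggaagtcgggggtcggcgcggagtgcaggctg
ITGA2: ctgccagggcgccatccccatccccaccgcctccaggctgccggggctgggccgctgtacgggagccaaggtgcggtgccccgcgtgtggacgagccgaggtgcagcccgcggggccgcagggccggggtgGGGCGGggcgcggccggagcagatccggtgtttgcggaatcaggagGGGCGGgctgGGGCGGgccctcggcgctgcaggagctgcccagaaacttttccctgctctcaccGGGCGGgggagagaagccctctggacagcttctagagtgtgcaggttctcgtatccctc
LAMA3: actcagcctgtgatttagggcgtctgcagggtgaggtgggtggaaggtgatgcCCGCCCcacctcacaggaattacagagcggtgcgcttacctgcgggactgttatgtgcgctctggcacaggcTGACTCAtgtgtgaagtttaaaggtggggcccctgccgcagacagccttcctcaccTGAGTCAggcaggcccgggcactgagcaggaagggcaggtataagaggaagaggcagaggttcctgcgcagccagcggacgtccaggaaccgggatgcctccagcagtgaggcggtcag
ITGB6: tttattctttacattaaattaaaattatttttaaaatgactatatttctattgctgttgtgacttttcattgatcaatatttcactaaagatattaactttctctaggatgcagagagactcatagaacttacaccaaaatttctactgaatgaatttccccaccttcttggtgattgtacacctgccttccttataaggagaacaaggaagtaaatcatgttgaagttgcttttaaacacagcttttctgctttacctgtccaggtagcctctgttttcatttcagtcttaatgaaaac

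The ITGB1 and LAMC1 promoters held 3 GC boxes each and the ITGA2 promoter held 4, while the ITGB6 promoter held none of these motifs. The printed LAMA3 promoter held 2 AP-1 motifs and 1 GC box. The GC box did not separate the starts over the other members. ITGA8 (4 boxes), ITGAM (2) and ITGA6 (1) had no start peak in any list. Conversely, the promoters of ITGA1, ITGA4, ITGA10, ITGA11, ITGAV, LAMA2 and LAMA4 lacked the box and had a start peak in all 4 lists. Over the 26 member promoters a GC box was found in 14 (53.8%), against 58.5% of 15813 protein-coding promoters. The AP-1 motif was found in 2 member promoters, those of ITGA5 and LAMA3 (7.69%), against 5.75% of all promoters, and the TATA box in 1 (3.85%), against 9.64%. Members with a start peak in all 4 lists (16 of the 26) had a median promoter GC content of 70.0% (range 48.7% to 79.0%) and a median of 21 CpG sites. The 8 with no start peak had a median GC content of 53.2% (31.7% to 69.3%) and 6 CpG sites, and ITGB6 had 0. Over all protein-coding promoters the corresponding medians were 65.3% and 26 CpG sites with a peak in all lists (9969 genes), against 55.7% and 7 CpG sites with none (4827 genes). The nicking enzyme cuts at CCA, CCG and CCT, which occurred a median of 46 times on both strands in the members with a peak and 37 times in those without, against 45 and 37 times over all promoters. The part of base composition in where peaks were called was not tested.

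The 38 genes had between 3 and 33 regions each, with a median of 10, against a median of 5 over all protein-coding genes. They were also longer, with a median span of 79.2 kb against 24.2 kb, and per 100 kb of extended span they held a median of 13.9 regions against 9.17. No member lacked a region, whereas 1401 of the 19974 genes did. LAMA3, the alpha chain of an epithelial laminin, held 33 regions. LAMA2, the muscle and nerve laminin alpha chain, held 32, and ITGA9 held 31. ITGA1 and ITGA2, collagen receptor chains, held 29 and 27. LAMB2 had the fewest, 3 regions in a span of 11.9 kb.

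The combination list held 378 of the 510 regions (74.1%), the belinostat list 391 (76.7%), the AsiDNA list 409 (80.2%) and the vehicle list 366 (71.8%). The lists had 134865, 138937, 138273 and 130318 peaks in the same order, so the AsiDNA list held the most member regions while the belinostat list was the longest. Member peaks made up 0.285%, 0.286%, 0.298% and 0.284% of the peaks of these lists, the highest share being that of AsiDNA. The part of list length in the counts was not tested. Depth per library is unknown. The authors' fold enrichment of a peak over its local background was turned into a percentile within its own list. Member peaks had a median percentile of 50.1 in the combination list, 48.4 in the belinostat list, 48.0 in the AsiDNA list and 48.2 in the vehicle list, near the middle of each list.

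**Figure D1:**
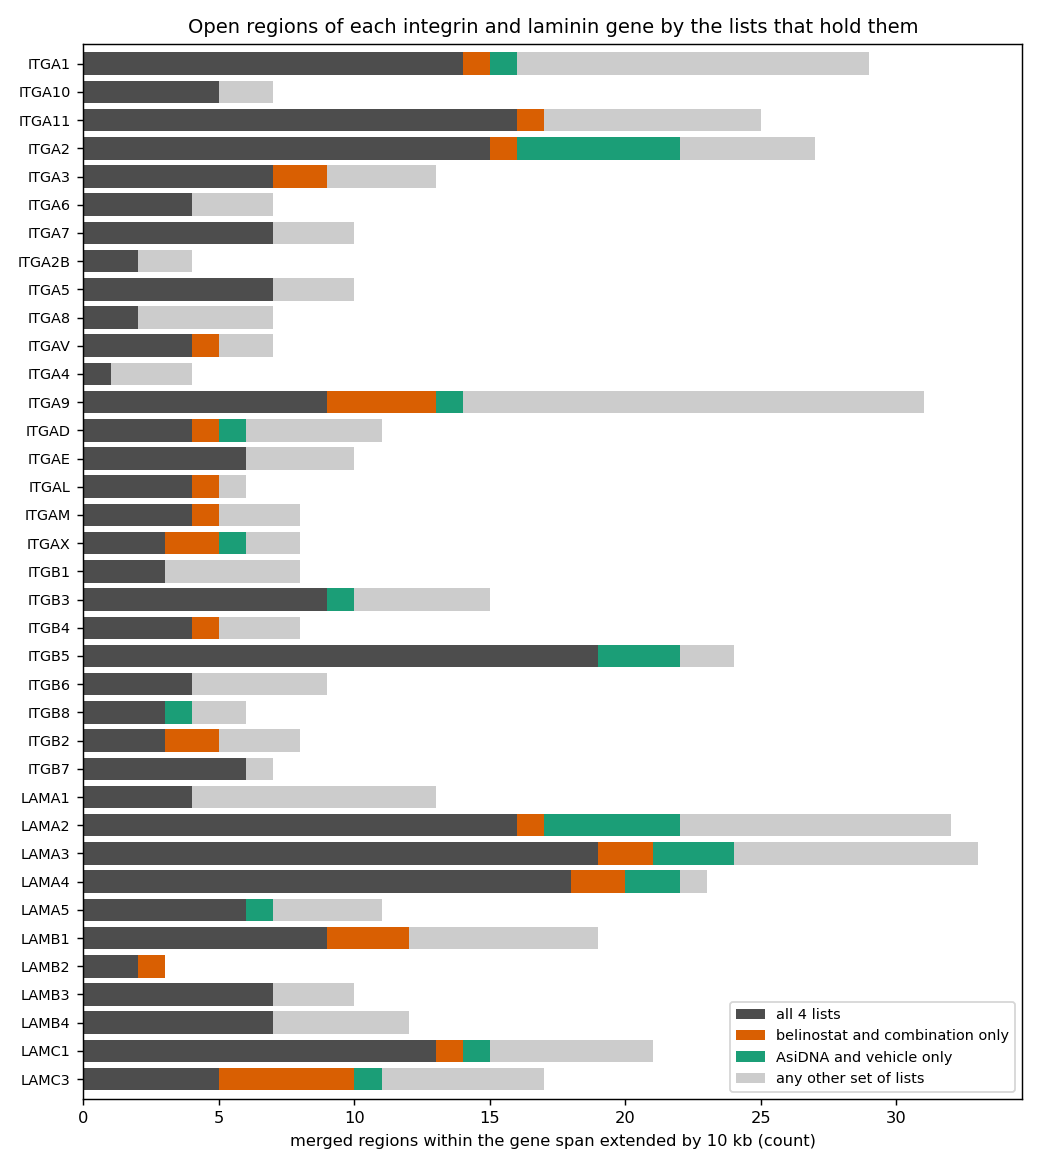
Number of merged regions within the span extended by 10 kb of 37 of the genes, ordered by role, with the bar divided by which of the 4 lists hold the region. The dark part, regions in all 4 lists, reaches 19 in ITGB5 and LAMA3, the orange part is longest in LAMC3 (5 regions) and the green part in ITGA2 (6 regions).

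Of the 510 integrin and laminin regions, 277 (54.3%, interval 50.0% to 58.6%) had a peak in all 4 lists. The interval took in the 51.4% of all merged regions and the 54.5% of the 112527 regions near any protein-coding gene. Integrin genes (164 of 305, 53.8%) and laminin genes (113 of 205, 55.1%) had similar shares. A further 93 regions were in 1 list, 77 in 2 lists and 63 in 3 lists. Per gene, the median share of regions in all 4 lists was 55.1%, against 59.0% over all genes. Among members with at least 10 regions the share was highest for ITGB5 (19 of 24, 79.2%) and LAMA4 (18 of 23, 78.3%), followed by ITGA5, ITGA7 and LAMB3 with 7 of 10 each (70.0%). It was lowest for ITGA9 (9 of 31, 29.0%), LAMC3 (5 of 17, 29.4%), LAMA1 (4 of 13, 30.8%), ITGAD (4 of 11, 36.4%) and LAMB1 (9 of 19, 47.4%). By place, with a region counted once for each member it lies near, 25 of 33 regions at a gene start (75.8%) were in all 4 lists, against 208 of 390 in the gene body (53.3%) and 47 of 95 in the flanks (49.5%). The same split was not made for all merged regions, so the higher share at starts is not shown to be particular to these genes.

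The first question was what each drug changed relative to vehicle. A region was called gained where the first list of a pair had a peak and the second had none, and lost in the opposite case. In the belinostat list 80 member regions were gained over vehicle (15.7%, 12.8% to 19.1%), against 17.9% of all merged regions, and 55 were lost (10.8%, 8.38% to 13.8%), against 13.1%. The gains were spread over 32 genes and were most numerous in LAMC3, a laminin gamma chain, which gained 8. The losses were spread over 26 genes and were most numerous in ITGA2, which lost 8. In the AsiDNA list 71 member regions were gained over vehicle (13.9%, 11.2% to 17.2%), against 13.1%, and 28 were lost (5.49%, 3.83% to 7.82%), against 8.46%. ITGA9 gained the most, 9 regions, and also lost the most, 4. Of the 17 shares given here for gains, losses and presence patterns, the share lost with AsiDNA was the 1 whose interval left out the share over all regions. Against regions near any protein-coding gene, of which 7.38% were lost, the interval did not leave it out. The share depended on weak peaks: it was 3.39% with peaks of −log10 q of at least 5 alone, and 2.31% where a region with any weaker peak was left out. Under this last rule 10.3% were gained and 10% lost with belinostat over vehicle, and with lists of equal length 12.7% were gained and 12.9% lost, so the excess of gains did not hold there.

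With the combination 75 member regions were gained over vehicle (14.7%, 11.9% to 18.0%), against 15.4% of all merged regions, and 63 were lost (12.4%, 9.78% to 15.5%), against 12.9%. LAMC3 again gained the most, 7 regions, while ITGA2, ITGA9 and LAMA2 lost 7 each. The comparisons over vehicle share the vehicle list, so they are not independent of each other.

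The second question was what each drug added to the other. Adding belinostat to AsiDNA went with 61 gained member regions (11.96%, 9.43% to 15.1%), against 13.3% of all merged regions, and 92 lost regions (18.0%, 14.9% to 21.6%), against 15.5%. Of regions near any protein-coding gene 14.5% were lost, which lies outside the members' interval, the 1 case of 17 for that background. ITGA1 lost 11 regions and ITGA9 and LAMA2 lost 10 each, while ITGA3, ITGA11 and LAMC3 gained 5 each. Adding AsiDNA to belinostat went with 39 gained regions (7.65%, 5.64% to 10.3%), against 8.99%, and 52 lost regions (10.2%, 7.86% to 13.1%), against 11.2%. ITGA9 lost the most in this pair, 6 regions, and no gene gained more than 3. The excess of losses in this pair did not hold in all settings: where regions with a peak of −log10 q under 5 were left out, 6.41% were gained and 6.15% lost, and with lists of equal length 9.41% were gained and 8.18% lost.

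**Figure D2:**
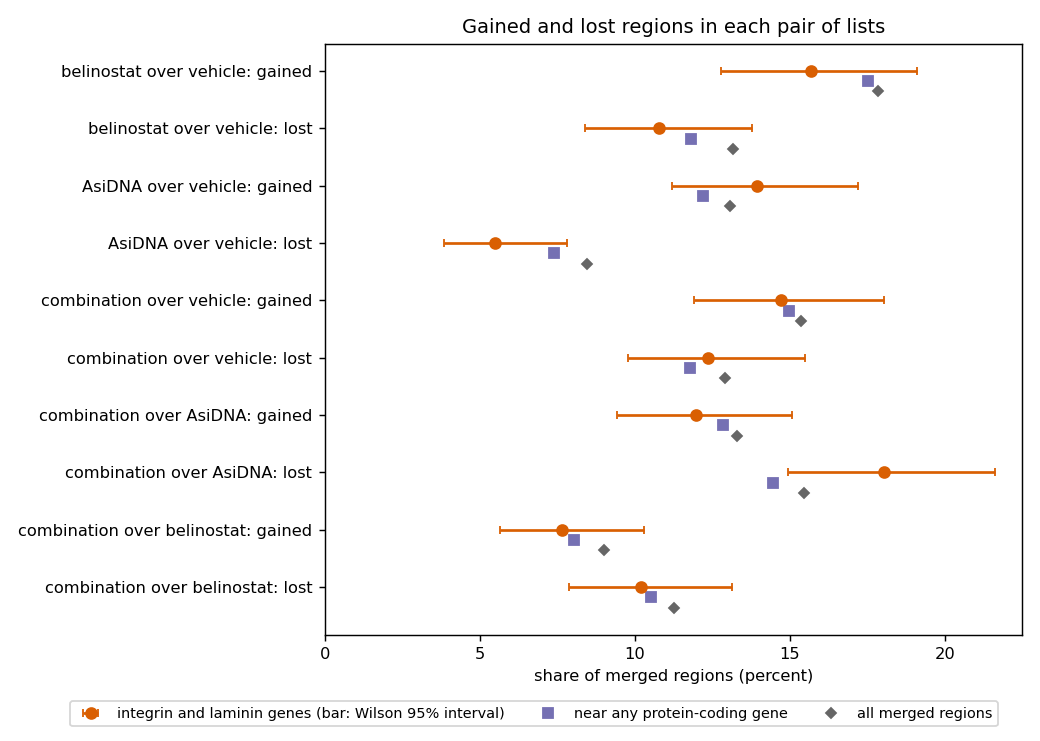
Share of merged regions gained or lost (percent, horizontal axis) in each pair of lists for the integrin and laminin genes (circles, with Wilson 95% intervals), for regions near any protein-coding gene (squares) and for all merged regions (diamonds). The circles run between 5.49% (AsiDNA over vehicle, lost) and 18.0% (combination over AsiDNA, lost), and the diamonds between 8.46% (AsiDNA over vehicle, lost) and 17.9% (belinostat over vehicle, gained).

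The lists that shared a drug were then read together. Regions in both belinostat lists, those of the combination and of belinostat, and in neither other list numbered 33 (6.47%, 4.64% to 8.95%), against 6.09% of all merged regions, and came from 20 genes. Regions in both lists without belinostat and in neither other numbered 27 (5.29%, 3.66% to 7.59%), against 5.04%, and came from 14 genes. In both counts of genes, ITGAD and ITGAX are each counted for a region that they share. Regions in both AsiDNA lists alone numbered 6 (1.18%, 0.540% to 2.54%), against 1.23%, and regions in both lists without AsiDNA alone numbered 5 (0.980%, 0.419% to 2.27%), against 0.89%. Where regions with a peak of −log10 q under 5 were left out, these AsiDNA shares were 0.513% and 0.256%. For splits that follow neither drug there were 5 regions in both single-drug lists alone (0.980%, against 1.39%) and 1 in the vehicle and combination lists alone (0.196%, against 0.737%). Belinostat divided 60 member regions (11.8%), AsiDNA 11 (2.16%) and neither drug 6 (1.18%), against 11.1%, 2.12% and 2.13% of all merged regions. The members' interval for the belinostat division, 9.25% to 14.9%, took in the share over all regions.

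Regions in a single list, or missing from a single list, made up the rest. The AsiDNA list alone held 41 member regions in 22 genes (8.04%, 5.98% to 10.7%), against 6.78% of all merged regions, with 6 of them in ITGA1. The belinostat list alone held 23 (4.51%, 3.02% to 6.68%), against 6.72%. The vehicle list alone held 12 (2.35%, 1.35% to 4.07%), against 4.74%, and the combination list alone held 17 (3.33%), against 4.39%. The combination list alone lacked 19 regions (3.73%, 2.40% to 5.75%), against 2.25% of all merged regions and 2.12% near any protein-coding gene. Of these 8 kinds, the intervals of the vehicle list, the belinostat list and the regions missing from the combination list left out the share over all regions, and the last of these also left out the share near genes.

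**Figure D3:**
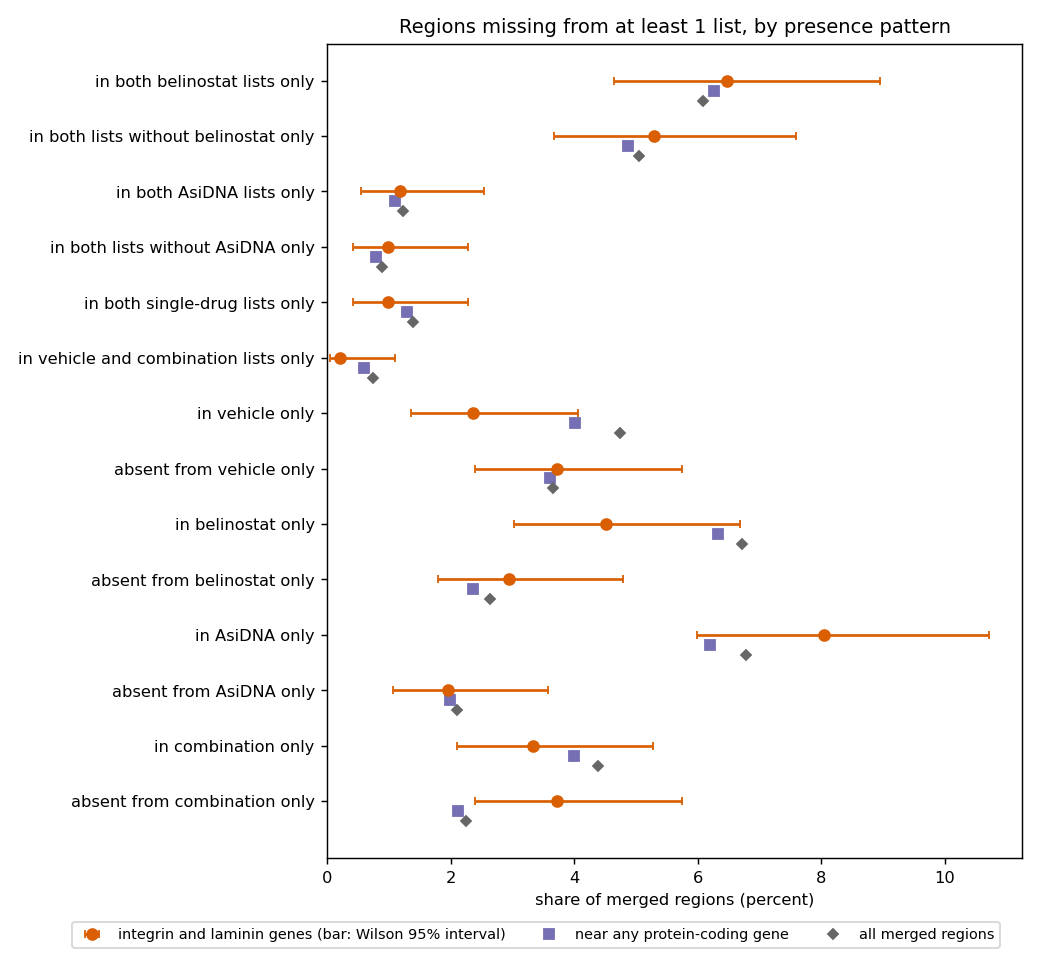
Share of merged regions (percent, horizontal axis) in each presence pattern other than all 4 lists, for the integrin and laminin genes (circles, with Wilson 95% intervals), for regions near any protein-coding gene (squares) and for all merged regions (diamonds). The belinostat patterns at 6.47% and 5.29% stand above the AsiDNA patterns at 1.18% and 0.980% for the members, and the diamonds show the same step.

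Regions that differed between lists were mostly weak where they were present. For each region the lowest percentile over the lists holding it was taken, and its median was 48.0 for member regions in all 4 lists, 11.5 for those in the belinostat lists alone, 23.9 for those in the lists without belinostat alone and 12.9 for those in 1 list. Over all merged regions these medians were 50.2, 18.8, 21.1 and 12.5. Of the 233 member regions missing from at least 1 list, 6 (2.58%) were at or above the 50th percentile in every list that held them, against 3.23% of all such regions. They lie in LAMA2, LAMA4 and ITGB8 (both lists without belinostat), LAMA3 (2 regions, 1 in both belinostat lists and 1 absent from vehicle alone) and the flank of LAMB1 (both AsiDNA lists), and each is described with its gene below.

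Among the collagen receptor alpha chains (ITGA1, ITGA2, ITGA10 and ITGA11, which all pair with the beta1 chain), 50 of 88 regions were in all 4 lists, 3 in the belinostat lists alone and 7 in the lists without belinostat alone. Of these 7, 6 belonged to ITGA2. ITGA2 had 19 regions in the combination list, 18 in the belinostat list, 24 in the AsiDNA list and 24 in the vehicle list, so both belinostat lists held fewer. The 6 regions lay 4.98 and 3.85 kb before the start and 0.841, 40.5, 52.2 and 53.5 kb after it. The strongest of them, at chr5:53041419-53041680 in the gene body, had a fold enrichment of 7.09 in the AsiDNA list and 5.72 in the vehicle list. The regions 4.98 and 3.85 kb before the start and 0.841 kb after it were weak in the vehicle list. Their fold enrichments there were 2.82, 2.85 and 2.87, at percentiles 3.05, 3.84 and 4.01. The main region at the ITGA2 start, chr5:52988813-52989701, covers the printed promoter and was in every list, with fold enrichments of 7.15, 6.44, 4.60 and 3.74 in the combination, belinostat, AsiDNA and vehicle lists, at percentiles 57.4, 53.3, 31.5 and 17.0. The start thus had the higher percentiles in the belinostat lists. ITGA2 also had 1 of the stronger regions of the combination list alone, chr5:53045396-53045632, with a fold enrichment of 5.44.

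ITGA1 had 18, 20, 25 and 21 regions in the combination, belinostat, AsiDNA and vehicle lists. The AsiDNA list was highest, and 6 ITGA1 regions were in it alone, between 76.1 and 174 kb after the start. The strongest of them, chr5:52947926-52948147, had a fold enrichment of 5.48. The region chr5:52878595-52879012, 90.9 kb after the start, was missing from the combination list alone and had fold enrichments of 5.79 with belinostat, 5.14 with AsiDNA and 4.97 with vehicle. The only member region in the vehicle and combination lists alone was in ITGA1 too, at chr5:52896619-52897088, with fold enrichments of 3.001 with the combination and 3.07 with vehicle. In ITGA11, chr15:68363464-68364386 was in both AsiDNA lists alone, with fold enrichments of 3.40 with the combination and 3.74 with AsiDNA. Both of these last regions are weak, under the 20th percentile of each list that held them, and neither kept its pattern with peaks of −log10 q of at least 5.

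Of the regions of the laminin-binding alpha chains (ITGA3, ITGA6 and ITGA7), 18 of 30 were in all 4 lists, 2 in the belinostat lists alone and 0 in the lists without belinostat alone. Both of the 2 were near ITGA3. The stronger, chr17:50049681-50050046, lies in the flank below the lower end of the gene and had fold enrichments of 4.86 with the combination and 5.36 with belinostat. ITGA3 held 12 regions in the combination list, 9 in the belinostat list, 7 in the AsiDNA list and 8 in the vehicle list, and 3 of its regions were in the combination list alone. ITGA6 had 5, 6, 6 and 4 regions in the same order of lists, which does not separate the groups.

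The alpha chains that bind the RGD motif of matrix proteins (ITGA5, ITGA8, ITGAV and the platelet chain ITGA2B) had 15 of 28 regions in all 4 lists, 1 in the belinostat lists alone and 0 in the lists without belinostat alone. ITGAV had 5 regions in the combination list, 7 in the belinostat list, 4 in the AsiDNA list and 4 in the vehicle list. Its region chr2:186612438-186612683, 22.5 kb after the start, was in the belinostat list alone with a fold enrichment of 4.87. In ITGA5, the fibronectin receptor alpha chain, chr12:54401153-54401371 was in the combination list alone with a fold enrichment of 4.54. ITGA8 had 3 regions each in the combination and belinostat lists, 6 in the AsiDNA list and 4 in the vehicle list.

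ITGA4 and ITGA9, the alpha chains that bind VCAM-1 and related ligands, had the lowest share in all 4 lists of any role, 10 of 35 regions (28.6%). ITGA9 had 17 regions with the combination, 20 with belinostat, 23 with AsiDNA and 18 with vehicle, and its regions took almost every pattern. It held 4 regions in the belinostat lists alone, 1 in the lists without belinostat alone, 5 in the AsiDNA list alone and 2 in the vehicle list alone. ITGA9 regions that ranked high in their pattern were chr3:37649874-37650251, absent from belinostat alone, with fold enrichments of 5.54 with the combination, 8.28 with AsiDNA and 8.16 with vehicle, and chr3:37608429-37608661, in the vehicle list alone at 5.26. The region chr3:37601928-37602155 was in both AsiDNA lists alone, at 4.62 with the combination and 4.83 with AsiDNA. In ITGA4, chr2:181465728-181466326, 8.64 kb after the start, was absent from vehicle alone, with fold enrichments of 7.17, 5.10 and 5.37 in the combination, belinostat and AsiDNA lists.

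The leukocyte alpha chains (ITGAD, ITGAE, ITGAL, ITGAM and ITGAX) are known from blood cells. They had 20 of 39 regions in all 4 lists (51.3%), against 51.4% of all merged regions. They had 29, 30, 29 and 25 regions in the combination, belinostat, AsiDNA and vehicle lists, and 4 in the belinostat lists alone against 1 in the lists without belinostat alone. The 4 regions shared by ITGAD and ITGAX are counted once here. In ITGAE, the chain that binds E-cadherin, chr17:3794908-3795345, 6.06 kb after the start, was missing from the combination list alone, with fold enrichments of 4.94, 4.97 and 4.75 in the belinostat, AsiDNA and vehicle lists. The leukocyte beta chains ITGB2 and ITGB7 had 9 of 15 regions in all 4 lists. The ITGB7 region chr12:53195989-53196391 was in both lists without AsiDNA alone, at 3.24 with belinostat and 4.32 with vehicle, a pattern it did not keep with peaks of −log10 q of at least 5 or with lists of equal length.

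The other beta chains (ITGB1, ITGB3, ITGB4, ITGB5, ITGB6 and ITGB8) had 42 of 70 regions in all 4 lists, 1 in the belinostat lists alone and 5 in the lists without belinostat alone. Of these 5, 3 were in ITGB5, a partner of the alphaV chain, at 43.0, 71.6 and 114 kb after its start. ITGB8, another alphaV partner, held the strongest at chr7:20351956-20352297, 21.2 kb after the start, with fold enrichments of 7.47 with AsiDNA and 7.09 with vehicle, at percentiles 66.2 and 65.3. In ITGB3, chr17:47305443-47305906 was absent from AsiDNA alone, with fold enrichments of 6.88 with the combination, 9.45 with belinostat and 4.73 with vehicle. ITGB6, the epithelial alphaV partner, had regions absent from belinostat alone (chr2:160110041-160110267, fold enrichments 5.08 with the combination, 5.84 with AsiDNA and 4.73 with vehicle), absent from AsiDNA alone (chr2:160096417-160096794, 4.62 with the combination, 6.95 with belinostat and 4.26 with vehicle) and in the vehicle list alone (chr2:160148344-160148541, 4.02). The ITGB4 region in both single-drug lists alone, chr17:75755411-75756237, also lies in the span of the galactokinase gene GALK1 and had fold enrichments of 3.58 with belinostat and 3.53 with AsiDNA. ITGB1, the common partner of most matrix-binding alpha chains, had 6 regions with the combination, 3 with belinostat, 5 with AsiDNA and 5 with vehicle, the 3 being the regions held by all lists.

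The laminin alpha chains (LAMA1 to LAMA5) had the most regions of any role, 112, of which 63 were in all 4 lists, 5 in the belinostat lists alone and 11 in the lists without belinostat alone. They had 75 regions with the combination, 82 with belinostat, 94 with AsiDNA and 83 with vehicle. LAMA2 alone gave 5 of the 11 regions, in the gene body 292, 301, 302, 550 and 586 kb after the start. The strongest of them, chr6:129183577-129183883, had fold enrichments of 5.98 with AsiDNA and 6.05 with vehicle, at percentiles 51.0 and 53.6. In the other direction LAMA2 had 1 region, chr6:129342308-129342544, with fold enrichments of 6.07 with the combination and 7.33 with belinostat. Its region chr6:129440737-129441182 was missing from the combination list alone, at 5.56 with belinostat, 7.94 with AsiDNA and 6.15 with vehicle. The region chr6:129280783-129281041 was in the AsiDNA list alone, at 5.84. Counted by list, LAMA2 had 20 regions with the combination, 21 with belinostat, 28 with AsiDNA and 24 with vehicle.

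LAMA4, a vascular and mesenchymal laminin alpha chain, held the strongest region of the lists without belinostat, chr6:112241846-112242119, 12.6 kb after the start. It had fold enrichments of 7.85 with AsiDNA and 7.31 with vehicle, at percentiles 69.3 and 67.1, and no peak in either belinostat list. LAMA4 had 20, 20, 20 and 21 regions in the combination, belinostat, AsiDNA and vehicle lists, with 2 regions in the belinostat lists alone, 2 in the lists without belinostat alone and 1 in the vehicle list alone. LAMA3 held regions of several kinds. Its region chr18:23890679-23891036 was the strongest of the belinostat lists alone, at 6.93 with the combination and 7.65 with belinostat (percentiles 55.7 and 64.0). A region in the flank before its lower end, chr18:23683572-23684049, was absent from vehicle alone, at 7.94 with the combination, 9.07 with belinostat and 7.83 with AsiDNA. Conversely chr18:23837649-23837980 was absent from belinostat alone, at 5.86 with the combination, 8.71 with AsiDNA and 5.64 with vehicle. A pair of LAMA3 regions were in both lists without AsiDNA alone, chr18:23779678-23779923 at 4.17 with belinostat and 4.01 with vehicle, and chr18:23733274-23733711 at 3.48 with belinostat and 4.02 with vehicle, of which the second did not keep its pattern with peaks of −log10 q of at least 5. The LAMA3 region chr18:23710352-23710583 was in the AsiDNA list alone, at 5.61.

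LAMA1, the embryonic laminin alpha chain, had 4 of 13 regions in all 4 lists and none in the belinostat or without-belinostat patterns. It had 6 regions with the combination, 7 with belinostat, 9 with AsiDNA and 6 with vehicle, with 4 in the AsiDNA list alone. The region chr18:7084202-7084525 was in the combination list alone, with a fold enrichment of 5.54. The region chr18:6947428-6947767 was absent from AsiDNA alone, at 4.85 with the combination, 5.33 with belinostat and 4.84 with vehicle, and chr18:7052072-7052548 was in both single-drug lists alone, at 3.94 with belinostat and 4.67 with AsiDNA. LAMA1 nevertheless held one of the strongest stable regions of the set, chr18:7038221-7038981, with fold enrichments of 18.7, 19.2, 15.0 and 14.0 in the combination, belinostat, AsiDNA and vehicle lists, above the 97th percentile of each.

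Other regions of that rank lay in LAMB1 and LAMA3. The highest was chr7:107966671-107967237, 36.2 kb after the start of LAMB1, with fold enrichments of 19.9, 18.8, 18.7 and 15.9 in the combination, belinostat, AsiDNA and vehicle lists, at or above percentile 98.9 in each. LAMA3 held the next ones, chr18:23784808-23785393 at 17.7, 16.9, 14.7 and 14.3 and chr18:23695299-23696255 at 20.0, 18.4, 13.8 and 16.6 in the same order of lists. These regions were present in every list and therefore showed no gain or loss.

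The laminin beta chains (LAMB1 to LAMB4) had 23 of 40 regions in all 4 lists, 4 in the belinostat lists alone and 0 in the lists without belinostat alone. LAMB1, the beta chain of the widespread laminins, gave 3 of the 4 and LAMB2 gave 1. LAMB1 had 14 regions with the combination, 16 with belinostat, 13 with AsiDNA and 11 with vehicle. The strongest region of both AsiDNA lists alone was chr7:107913923-107914191, with fold enrichments of 7.62 with the combination and 6.31 with AsiDNA, at percentiles 61.5 and 54.8. It lies in the flank of LAMB1 but inside the span of the neighbouring gene DLD, a mitochondrial dehydrogenase subunit. Weaker LAMB1 and LAMB4 regions were in the belinostat list alone, chr7:107971918-107972517 at 4.40 and chr7:108093910-108094223 at 4.44. In LAMB4, chr7:108022906-108023250 was absent from vehicle alone, at 5.08 with the combination, 7.42 with belinostat and 5.84 with AsiDNA. In LAMB3, chr1:209624622-209624822 was in the vehicle list alone, at 4.63.

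Among the laminin gamma chains, LAMC3 had 5 of 17 regions in all 4 lists, 5 in the belinostat lists alone and 1 in the lists without belinostat alone. It had 12 regions with the combination, 13 with belinostat, 11 with AsiDNA and 6 with vehicle, the lowest count being that of vehicle. The 5 regions of the belinostat lists lay 5.06, 37.0, 74.1, 85.6 and 93.6 kb above the lower end of the gene, the last of them in the flank. All 5 were weak, with fold enrichments between 2.51 and 3.93 in the combination list and between 2.52 and 3.31 in the belinostat list, and none was above the 20th percentile. LAMC1, the gamma chain shared by most laminins, had 13 of 21 regions in all 4 lists and 1 of each belinostat kind, with 16, 19, 15 and 16 regions in the combination, belinostat, AsiDNA and vehicle lists.

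**Figure D4:**
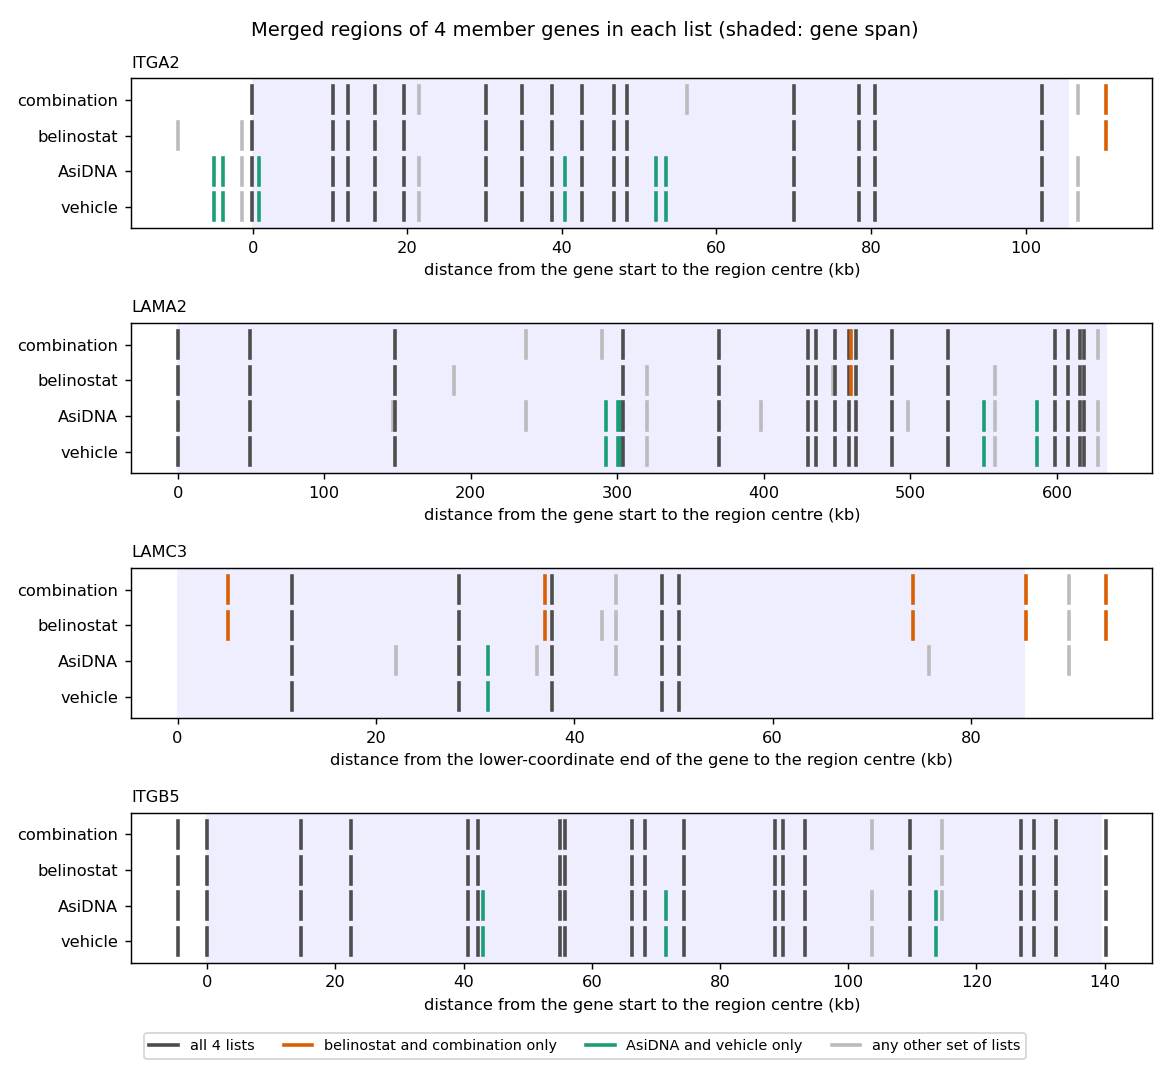
Position of each merged region (vertical ticks, distance in kb on the horizontal axis) in the 4 lists for ITGA2, LAMA2, LAMC3 and ITGB5, with the gene span shaded. These genes were chosen after their counts were seen: the green ticks mark the 6 ITGA2, 5 LAMA2 and 3 ITGB5 regions with peaks in the AsiDNA and vehicle lists alone, and the orange ticks the 5 LAMC3 regions with peaks in the combination and belinostat lists alone.

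At gene level the 33 and 27 regions of the belinostat division were spread unevenly. LAMC3 held the most of one kind (5) and ITGA2 the most of the other (6). Both kinds occurred in 10 genes (ITGA1, ITGA2, ITGA9, ITGAD, ITGAX, LAMA2, LAMA3, LAMA4, LAMC1 and LAMC3) and neither kind in 14. The ITGAD regions of both kinds are those it shares with ITGAX, so these genes are not separate cases.

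Gene starts were examined separately. The start was known for 26 members, and for the other 12, among them ITGA3, ITGA7, ITGA9, ITGAD, ITGAL, ITGAX, ITGB2, ITGB3, ITGB4, LAMA1 and LAMC3, either end of the gene was allowed. A peak within 1000 bp was in all 4 lists for 20 of the 38 genes (52.6%, 37.3% to 67.5%), against 61.6% of the 19974 protein-coding genes. Where the start was known this was 16 of 26 members (61.5%), against 63.0% of 15813 genes, and where either end was allowed it was 4 of 12 (33.3%), against 56.0% of 4161 genes. Integrin genes (14 of 26) and laminin genes (6 of 12) were alike in this. The integrins with a stable start included ITGB1, ITGB5 and ITGB8, the fibronectin and vitronectin receptor chains ITGA5 and ITGAV, and all 4 collagen receptor alpha chains. Among laminins they were LAMA2, LAMA4, LAMB1, LAMB2, LAMB3 and LAMC1. LAMA4, LAMB1 and LAMC1, the chains of a vascular laminin, were thus all among them, whereas LAMA5, also a vascular chain, was not.

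Rank at these stable starts differed between lists. For ITGB1 the region chr10:32957637-32958959, which covers the printed promoter, had fold enrichments of 11.8 with the combination, 12.1 with belinostat, 7.26 with AsiDNA and 6.81 with vehicle, at percentiles 85.0, 87.1, 64.4 and 62.3. For LAMC1 the strongest start peak, in chr1:183022206-183022882 just before the printed promoter, had 13.6, 14.2, 9.46 and 8.35, at percentiles 90.7, 92.9, 80.6 and 76.2. ITGB2, the leukocyte beta chain, had 16.2 with the combination, 15.9 with belinostat, 8.01 with AsiDNA and 8.99 with vehicle, within 1000 bp of either end. Both belinostat lists gave the higher fold enrichments in these genes and in ITGA1, ITGA2, ITGA3, ITGA5, ITGA7, ITGAV, ITGAX, ITGB8 and LAMB3. In LAMA4 they gave the lower ones, 5.89 with the combination, 5.54 with belinostat, 7.25 with AsiDNA and 7.61 with vehicle, and likewise in LAMA2 (5.77, 5.33, 6.54 and 6.38) and ITGB5 (4.96, 4.47, 6.08 and 5.23). The other stable starts, those of ITGA4, ITGA10, ITGA11, LAMB1 and LAMB2, followed neither order. Over all peaks the median fold enrichment was also higher in the belinostat lists: 6.32, 6.09, 5.87 and 5.75 in the combination, belinostat, AsiDNA and vehicle lists. The start values are the authors' values of single peaks, not scaled between lists, and ranks from lists of different lengths do not show a change.

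**Figure D5:**
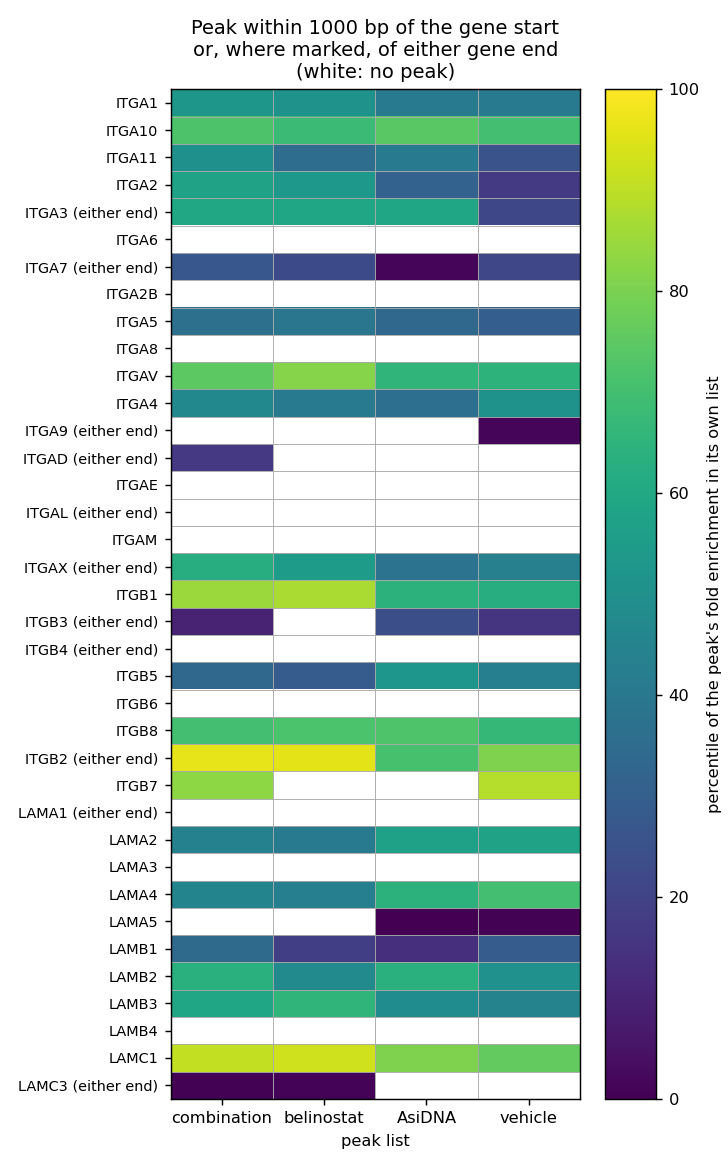
Percentile of the fold enrichment, within its own list, of the strongest peak within 1000 bp of each gene's start or, where marked, of either end of the gene; white cells have no peak. Rows without white cells are the 20 genes with a peak in all 4 lists, with ITGB2 and LAMC1 among the brightest, and 11 of the 37 rows drawn are white throughout.

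A start peak was in some lists and not in others for 6 genes. For LAMC3, ITGB3, ITGAD and ITGA9 the strand was not in the tables used, so the end with the peak may not be the start. LAMC3 had one at its upper end with the combination and with belinostat, at fold enrichments of 2.51 and 2.52, while the peaks nearest its lower end lay 4953 bp away with the combination and 4873 bp away with belinostat. LAMA5, an epithelial and vascular laminin alpha chain, had one with AsiDNA and with vehicle, at 2.25 and 2.36. These LAMC3 and LAMA5 fold enrichments lie under the first percentile of their lists. ITGB3, the partner of alphaV and of the platelet chain ITGA2B, had one at its lower end with the combination (3.43), AsiDNA (4.16) and vehicle (3.58) but not with belinostat. ITGAD had one at its lower end with the combination alone (3.89) and ITGA9 one at its lower end with vehicle alone (2.62). ITGB7 had one with the combination (11.3) and vehicle (10.6), but the nearest belinostat and AsiDNA peaks lay 1028 and 1006 bp from the start, just past the window, against 968 bp with the combination and 942 bp with vehicle, and all belonged to 1 merged region.

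No start peak was found in any list for 12 genes, among them ITGA2B, ITGA6, ITGA8, ITGAE, ITGAL, ITGAM, ITGB4, ITGB6, LAMA1, LAMA3 and LAMB4. For ITGB6 the nearest peaks lay 5118, 5128, 5110 and 5115 bp from the start in the combination, belinostat, AsiDNA and vehicle lists. For ITGA6, a laminin receptor alpha chain, they lay 14604 bp away with the combination, against 10481 bp with belinostat, 10564 bp with AsiDNA and 10383 bp with vehicle. The starts of both the laminin-binding chain ITGA6 and its partner ITGB4 were thus without a peak in all lists. For LAMA3 the start in the table lies inside the gene, and the nearest peaks were 1074, 1113, 1290 and 1267 bp away in the same order of lists. At the lower end of LAMA3, its outermost start on the plus strand, the region chr18:23689047-23689759 was in all 4 lists, with fold enrichments of 6.22, 6.56, 7.96 and 6.40.

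The proteins that connect integrins to the cell and laminins to the basement membrane were counted for comparison, from a list of 32 genes. The list was grouped by role and followed no symbol rule, so it is not matched to the members. A start peak was in all 4 lists for 29 of the 32 genes (90.6%, 75.8% to 96.8%), against 52.6% of the members and 61.6% of all protein-coding genes. This held for 11 of 11 activators and adaptors such as talin (TLN1), vinculin (VCL) and paxillin (PXN), and for 6 of 6 kinases and partners such as focal adhesion kinase (PTK2) and SRC. It held for 6 of 8 other matrix ligands, among them fibronectin (FN1) and tenascin C (TNC), and for 6 of 7 basement membrane partners, among them perlecan (HSPG2). NPNT, a ligand of the ITGA8 receptor, and NID1, which links laminin to collagen, had no start peak in any list. TNR, a tenascin of the nervous system, had one with the combination (4.85), belinostat (5.40) and vehicle (4.73) and none with AsiDNA. Either end was allowed for FERMT1, PARVA, PTK2, PTK2B, SRC, TNR and AGRN.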

How the data were processed

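NicE-seq peak lists of 16 U87 libraries in 4 treatment groups were used, 1 list per group. The submitters' processing notes name hg38 as the build and, as tools, MACS2, Bowtie2, deepTools, Picard, SAMtools and Trim Galore 0.5.0. Which tool did what and with which options, whether an input or a blacklist was used, and how libraries were pooled into a list is not given in the sources used here. Each peak carries a deposited fold enrichment from the authors' peak caller, a ratio to the local background. The deposited q-value of each peak is on the −log10 scale, and the lowest −log10 q of a list lies between 1.30 and 1.31. The deposited score of each peak is its −log10 q on a coarser scale and was not used further. The deposited summit offset was not used. No counts of reads were used, so the depth per library and the precision it gives are unknown.

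From these files, peaks on chromosomes 1 to 22 and X were merged where they overlapped by at least 1 bp. Regions were assigned to every member gene whose span, extended by 10 kb, they met. Gene spans, starts and promoter sequences are those of RefSeq on GRCh38.p14, which is the build of the peak lists. Starts were taken from the promoter table for 26 members, and for the other 12 either end of the gene was used with the same window of 1000 bp. The values of 1 member and 1 marker are in the counts but are not reported here. No genome sequence was used, so exons, introns and peak sequences were not analysed here. Percentiles of fold enrichment were taken within each list. Shares have Wilson 95% intervals. With 1 list per group no test was made, and all comparisons are descriptions.

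The members and lists were chosen with earlier results of these data known. Named regions were, per presence pattern, the 3 whose lowest percentile over the lists holding them was highest, and the 5 highest in all 4 lists. Named genes were those with a start peak in some lists or none, the 5 with the most regions and, among genes with at least 10 regions, the 5 with the highest and the 5 with the lowest share in all lists. Of the adhesion list, genes with a start peak in some lists were named. Other genes, including those with the largest counts of a kind, were named after their values were seen. Alternatives were a −log10 q of at least 5 in every list, a margin between present and absent (a region counts as present only with a peak at that −log10 q and as absent only with no peak, and others are left out), lists cut to equal length, an overlap of 50% of the shorter peak, flanks of 0 and 25 kb, and windows of 500 and 2000 bp. Scripts were tested on simulated data and ran under Python 3.11.15 with numpy 2.4.6, pandas 2.3.3, scipy 1.17.1 and matplotlib 3.10.9.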

Additional observations from a re-analysis of the deposited data

Results flagged for a closer look

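The change with belinostat pointed in opposite directions on the AsiDNA background and on the vehicle background at a few integrin and laminin regions. At 5 regions a peak was gained with belinostat over vehicle and lost with the combination over AsiDNA, so that both single-drug lists held it and the combination and vehicle lists did not. They are chr3:37645805-37646167 and chr3:37763319-37763672 in ITGA9, chr18:7052072-7052548 in LAMA1, chr18:23838805-23839275 in LAMA3 and chr17:75755411-75756237 in ITGB4. Their fold enrichments lay between 2.97 and 4.20 in the belinostat list and between 3.26 and 4.67 in the AsiDNA list. At 1 region, chr5:52896619-52897088 in ITGA1, the opposite held: it was lost with belinostat over vehicle and gained with the combination over AsiDNA, at 3.001 in the combination list and 3.07 in the vehicle list. The difference was not tested, since there is 1 list per group. All 6 regions were below the 34th percentile of each list that held them. Over all merged regions the shares of these patterns were 1.39% and 0.737%.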

How the results depend on the processing

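Gains and losses were nearly level for belinostat over vehicle with lists of equal length (12.7% gained, 12.9% lost). For the combination over belinostat they were nearly level with a margin (6.41% gained, 6.15% lost). Gains exceeded losses in that pair with lists of equal length (9.41% and 8.18%) and with a −log10 q of at least 5 (8.35% and 7.22%). For the combination over vehicle gains and losses were level with flanks of 0 kb, at 12.9% each. All 17 region shares moved by less than their counting interval with flanks of 0 or 25 kb and with an overlap of 50%, and the share of genes with a start peak did so with windows of 500 and 2000 bp. With lists of equal length, 1 of 18 values moved: regions gained with belinostat over vehicle were 12.7% of 489, against 15.7%. With a −log10 q of at least 5 in every list (443 regions), the share lost with AsiDNA over vehicle was 3.39%, the share lost with the combination over belinostat 7.22% and the share in both lists without AsiDNA only 0.226%. With a margin between present and absent (390 regions) 10 of 18 values moved and 8 did not. Regions with a peak below that −log10 q in any list are left out under this rule. Regions gained were 10.3% (belinostat over vehicle), 9.49% (AsiDNA over vehicle), 11.03% (combination over vehicle) and 8.72% (combination over AsiDNA). Regions lost were 2.31% (AsiDNA over vehicle) and 6.15% (combination over belinostat). The share in all 4 lists was 66.2%, in both AsiDNA lists only 0.513%, in both lists without AsiDNA only 0.256%, and in the vehicle and combination lists only 0%. The cause of the moves was not tested. Of 45 named regions, 43 kept their pattern with lists of equal length, 45 with the 50% overlap and 40 with the −log10 q of at least 5. Those that did not keep it were ITGB7 and 1 LAMA3 region (both lists without AsiDNA), ITGA11 (both AsiDNA lists), ITGA9 (both single-drug lists) and ITGA1 (vehicle and combination).

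No paired analysis was possible because each group has 1 peak list and the results come from no test. There was likewise no replicate to leave out. Depth per library is unknown, and a region without a peak in a list is not shown to be closed there.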
